A study of Mus musculus with 12 samples.

Results

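Mouse genes named Zfp encode mainly C2H2 zinc finger proteins, which bind DNA through tandem fingers. The genes described here are the 108 whose symbol in the platform annotation is Zfp followed by 3 digits that start with 7, 8 or 9, of 19494 genes measured by name. They were chosen by symbol, and the number range was chosen because 1 of them, Zfp799, was higher in NFAT5-deficient than in wild-type hematopoietic stem cells on these arrays. The values of the genotype comparison in stem cells are therefore given as a description, with no test, and the same holds for every stem cell comparison of Zfp799. The symbol rule draws an arbitrary line through the zinc finger genes. Just inside it, Zfp703, Zfp704 and Zfp706 averaged log2 intensities of 6.09, 8.45 and 8.59 over the 12 arrays, and just outside it, Zfp697, Zfp692 and Zfp691 averaged 6.44, 7.51 and 8.30. The 222 Zfp genes numbered below 700 served as the nearest set for comparison.

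Many of the high-numbered genes belong to the KRAB zinc finger family, which grew by local duplication and lies in clusters on a few chromosomes. A KRAB domain recruits the corepressor TRIM28 (KAP1), which brings the histone H3K9 methyltransferase SETDB1 and HP1 proteins to the bound DNA. The best-known targets of this machinery are endogenous retroviruses and other retroelements. NFAT5, the factor removed in this study, is a Rel-type transcription factor known for the response to hypertonic stress, and its binding sites hold the core letters TGGAAA.

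The arrays compared donor-derived bone marrow cells sorted 13 weeks after transplantation. NFAT5-deficient cells came from Nfat5 fl/fl Vav-Cre donors and wild-type cells from Nfat5 +/+ Vav-Cre donors, so both genotypes carried Vav-Cre, which deletes floxed alleles throughout the blood lineage. All donors were CD45.2 and all recipients were irradiated wild-type CD45.1 mice, whose own non-blood tissues kept Nfat5. Hematopoietic stem cells (HSC, CD48-CD150+) and multipotent progenitors (MPP, CD48+CD150-) were sorted within the lineage-negative, Sca-1+, Kit+ compartment, and picogram amounts of RNA were amplified for each array. The 4 groups were NFAT5-deficient HSC, wild-type HSC, NFAT5-deficient MPP and wild-type MPP, with 3 arrays each, numbered 64, 70 and 76 for NFAT5-deficient and 66, 67 and 75 for wild-type cells. The sources used here do not say whether arrays of a group came from separate animals or pools, so p-values measure only the spread between these arrays.

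Nfat5 had log2 intensities of 8.76, 8.34 and 7.62 in NFAT5-deficient HSC, against 9.81, 9.38 and 9.27 in wild-type HSC (two-sided exact permutation p = 0.1, the smallest that 3 arrays against 3 allow). In MPP it had 7.63, 7.73 and 8.40 in NFAT5-deficient cells, against 8.78, 8.85 and 8.12 in wild-type cells, and these values overlapped (exact permutation p = 0.2). Arrays of a group correlated across genes at 0.898 to 0.952. All 5 HSC markers and all 5 MPP and lymphoid priming markers lay above a mark for dim genes, which was set at a log2 intensity of 6.30, the 95th percentile of 1091 olfactory receptor genes. The HSC marker Slamf1 (CD150) averaged 10.1 in NFAT5-deficient HSC and 6.46 in NFAT5-deficient MPP, and Cd48 averaged 6.50 in NFAT5-deficient HSC and 10.3 in NFAT5-deficient MPP, in the direction of the gates. In these cells Mecom, Hlf and Fgd5 also averaged higher in HSC, and Flt3, Dntt, Cd34 and Satb1 lower. The HSC marker Procr went the other way, at 7.08 in NFAT5-deficient HSC and 7.35 in NFAT5-deficient MPP. Its NFAT5-deficient HSC arrays all lay below the wild-type HSC arrays (difference -1.10). Of markers of other cells, 4 of 9 mature neutrophil genes, 2 of 2 measured erythroid genes and 2 of 3 measured B cell genes averaged above the mark, and 0 of 3 T cell and 0 of 3 macrophage genes did. In whole sorted samples, fewer cells expressing a gene and less RNA per cell cannot be told apart.

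All 108 genes are protein-coding in RefSeq, and they were unevenly spread over the genome. Chromosome 7 held 24 of them (22.2%, against 9.27% of protein-coding genes), chromosome 17 held 21 (19.4%, against 4.84%) and chromosome 8 held 12 (11.1%, against 4.76%). Neighbourhoods were formed where at most 4 other protein-coding genes separated one member from the next. There were 11 such neighbourhoods of at least 3 members, which together held 50 of the 108 genes. The largest, on chromosome 17 between Zfp948 and Zfp945, held 13 members. Zfp799 lies in the second largest, also on chromosome 17, with Zfp871, Zfp811, Zfp870, Zfp952 and Zfp763, among cytochrome P450 genes of the Cyp4f family and with Zfp472 nearby.

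Upstream sequence was available for 95 of the 108 genes in the RefSeq promoter table (GRCm38.p6). For 14 of them several promoters were listed, and the first was used. The 5 stretches of 250 bases shown here end at the base before the annotated start. They belong to the gene that set the choice, the gene with the next largest difference in HSC, the gene with the smallest adjusted p in a tested comparison, and a pair of near-identical promoters. All are written 5′ to 3′ on the gene's strand. Capitals mark CCAAT, the CCAAT box, and TGGAAA, the NFAT5 core, on either strand, so that a CCAAT box on the other strand reads ATTGG. The regions are chr17:32830262-32830511 (minus strand) for Zfp799, chr17:55891843-55892092 (plus strand) for Zfp959, chr7:7136756-7137005 (minus strand) for Zfp773, chr2:175469775-175470024 (plus strand) for Zfp965 and chr2:178023034-178023283 (plus strand) for Zfp971.
Zfp799: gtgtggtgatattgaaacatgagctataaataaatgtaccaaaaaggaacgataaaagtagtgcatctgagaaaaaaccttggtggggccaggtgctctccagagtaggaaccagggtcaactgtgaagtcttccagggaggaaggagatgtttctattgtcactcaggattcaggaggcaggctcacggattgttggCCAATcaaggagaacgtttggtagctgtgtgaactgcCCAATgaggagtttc
Zfp959: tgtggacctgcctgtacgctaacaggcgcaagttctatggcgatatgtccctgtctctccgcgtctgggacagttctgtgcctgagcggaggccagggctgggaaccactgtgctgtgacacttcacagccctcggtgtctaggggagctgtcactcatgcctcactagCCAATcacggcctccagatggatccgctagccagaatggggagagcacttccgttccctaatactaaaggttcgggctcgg
Zfp773: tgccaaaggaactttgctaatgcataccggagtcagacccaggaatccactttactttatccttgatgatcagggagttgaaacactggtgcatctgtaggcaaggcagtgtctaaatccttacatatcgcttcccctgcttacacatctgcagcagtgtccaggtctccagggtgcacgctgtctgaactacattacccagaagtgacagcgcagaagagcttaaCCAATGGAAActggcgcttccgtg
Zfp965: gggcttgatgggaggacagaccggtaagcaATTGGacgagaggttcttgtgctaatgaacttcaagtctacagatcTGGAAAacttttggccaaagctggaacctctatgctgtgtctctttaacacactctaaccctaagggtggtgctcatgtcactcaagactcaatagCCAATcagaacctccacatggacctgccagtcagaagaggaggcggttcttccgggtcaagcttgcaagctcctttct
Zfp971: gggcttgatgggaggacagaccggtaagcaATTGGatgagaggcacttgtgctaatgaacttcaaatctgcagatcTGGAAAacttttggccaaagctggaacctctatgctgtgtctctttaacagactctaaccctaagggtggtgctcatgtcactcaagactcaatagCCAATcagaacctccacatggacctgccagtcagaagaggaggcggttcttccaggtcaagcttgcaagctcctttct

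The Zfp799 stretch holds 2 CCAAT boxes, whose first bases lie 52 and 15 bases before the start, and the letters TGGAAA do not occur in it on either strand. The Zfp959 stretch holds 1 CCAAT box and no TGGAAA. In Zfp773 a CCAAT box and TGGAAA overlap by 1 base. Over the 95 genes, 62 (65.3%) held CCAAT on either strand, against 37.6% of 178 Zfp genes numbered below 700 and 36.0% of 15683 genes of the array. TGGAAA occurred in 27 of 95 (28.4%), against 19.7% and 17.4% in the same sets. The letters CCATCTT, the core of YY1 sites, occurred in 4.21%, 4.49% and 4.15%, and TGACGTCA, the full CRE site, in 1.05%, 3.93% and 2.07%. The members' stretches also held fewer CG dinucleotides, with a median of 8, against 12 in Zfp genes numbered below 700 and 10 in all genes. Their median share of G and C was 51.2%, against 55.6% and 56.0% in the same sets, and its part in the motif counts was not tested. Copies of one promoter add to these counts without being independent. The Zfp965 and Zfp971 stretches are identical at 243 of 250 bases (97.2%), and 20 pairs of members, all on the same chromosome, were identical at 80% or more of the bases.

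Duplicated genes of chromosome 2 were among the brightest of the set. Zfp971, the brightest, had log2 intensities of 11.1, 11.2 and 10.7 in NFAT5-deficient HSC, 10.9, 11.0 and 10.5 in wild-type HSC, 10.8, 11.0 and 10.9 in NFAT5-deficient MPP and 10.4, 11.1 and 10.3 in wild-type MPP. All 12 values lay far above the mark, and the groups overlapped in each comparison. The other bright members by their mean over 12 arrays were Zfp970 (10.2), Zfp932 (10.2), Zfp966 (10.1), Zfp965 (9.93) and Zfp992 (9.93). Zfp932 is known to repress endogenous retroviruses in mouse embryonic stem cells. The signals of Zfp965, Zfp966, Zfp970 and Zfp971 cannot be told apart with certainty, since probes for one copy may bind transcripts of another, and the probe sequences were not used here. Brightness also depends on the probe, so this order is one of signals and not of transcript numbers.

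The mean over the 12 arrays exceeded the mark for 88 of the 108 genes (81.5%), for 165 of 222 Zfp genes numbered below 700 (74.3%) and for 56.1% of all genes. The mean was above the mark in all 4 groups for 78 members, below it in all 4 for 15, and above it in some groups for the other 15. Member means ran from 3.31 (Zfp735) to 10.8 (Zfp971), with a median of 7.41, against 7.08 for Zfp genes numbered below 700 and 6.56 for all genes. The median over members was 7.54 in NFAT5-deficient HSC, 7.28 in wild-type HSC, 7.52 in NFAT5-deficient MPP and 7.37 in wild-type MPP.

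**Figure D1:**
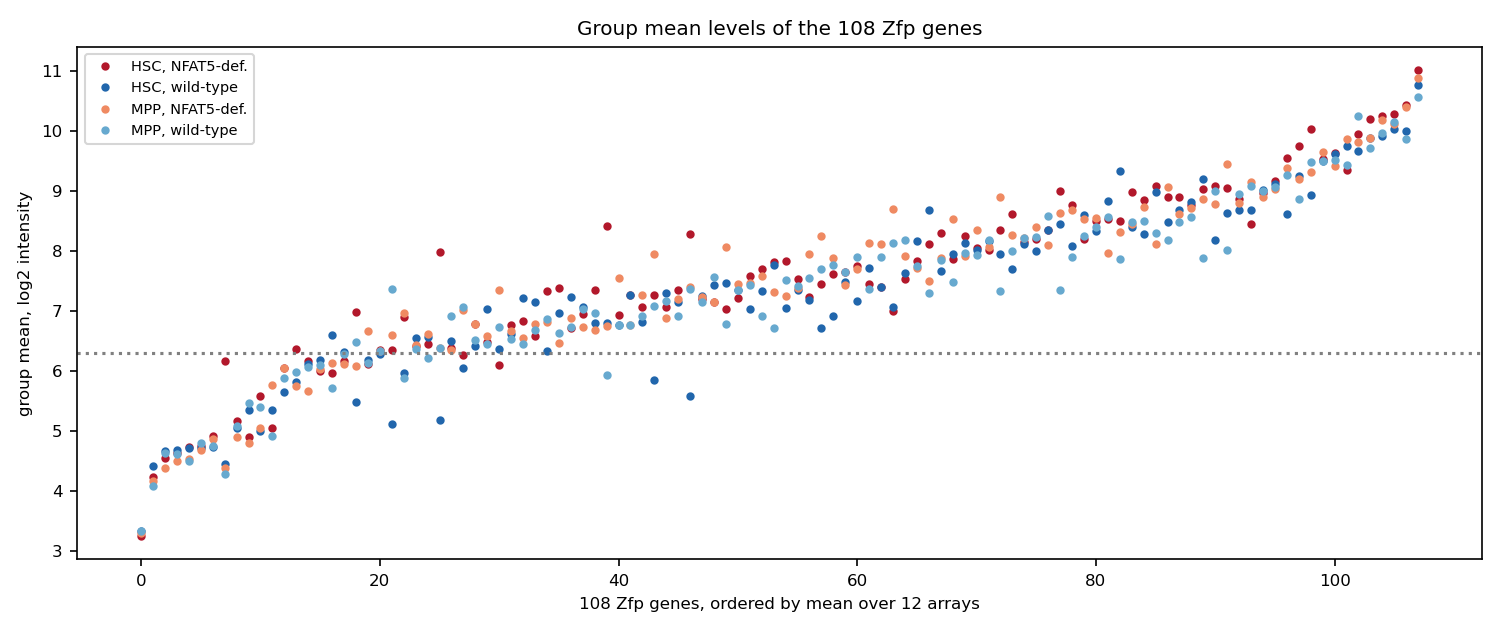
Mean log2 intensity (vertical axis) of each of the 108 Zfp genes in the 4 groups of 3 arrays, with genes ordered by their mean over 12 arrays (horizontal axis). The dotted line is the mark for dim genes at 6.30, which 88 genes exceed by their overall mean, and for most genes the 4 points lie close together.

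Arrays of the same group differed more for these genes than for the array as a whole. The median spread within groups (SD on the log2 scale) was 0.479 for the members, 0.459 for Zfp genes numbered below 700 and 0.252 for all genes. Among genes above the mark it was 0.519 for the members and 0.394 for all. Single arrays stood out for 16 of the 108 genes (14.8%), with a value at least 2 log2 units from both other arrays of the group, against 14.4% of Zfp genes numbered below 700 and 7.30% of all genes. Among genes above the mark the shares were 12.5% for the members and 10.1% for all genes. Zfp711, whose human counterpart is an X-linked intellectual disability gene, is the clearest case: it had 4.48, 9.68 and 4.36 in NFAT5-deficient HSC, against 4.53, 4.60 and 4.23 in wild-type HSC, and 4.10 to 4.50 in all MPP arrays. Its mean difference of 1.72 in HSC thus came from NFAT5-deficient array 70, and the other values lay below the mark. Array 70 also gave the lone high values of Zfp709 and Zfp850 in NFAT5-deficient HSC, and array 75 gave those of Zfp709, Zfp712, Zfp940 and Zfp959 in wild-type MPP.

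In HSC, the 2 genes with the largest differences between genotypes were Zfp799 and Zfp959, whose signals lay below the mark in all wild-type HSC arrays. Zfp799 had log2 intensities of 8.21, 8.73 and 7.01 in NFAT5-deficient HSC, against 5.41, 4.85 and 5.30 in wild-type HSC, a difference of 2.79. The groups did not overlap, and every NFAT5-deficient array lay above the mark. Zfp959 had 6.89, 9.73 and 8.27 in NFAT5-deficient HSC, against 5.80, 5.45 and 5.51 in wild-type HSC, a difference of 2.71. Its NFAT5-deficient arrays were also all higher, but spread widely among themselves. Both genes lie on chromosome 17, and Zfp959 is not in the neighbourhood of Zfp799.

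The groups of HSC arrays did not overlap for 17 of the 108 genes. In 13 of them (12.0%, against 3.55% of all genes) NFAT5-deficient HSC were higher, and in 4 (3.70%, against 6.61% of all genes) they were lower. Without Zfp799, 12 of 107 were higher (11.2%). The contrast chose the set, and nothing is read from these shares. Differences of at least 1 log2 unit in either direction occurred in 8 members (7.41%, against 4.02% of all genes), and in all 8 except Zfp799 and Zfp959 the groups overlapped.

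Zfp961, a KRAB zinc finger protein that binds primer binding site sequences of retroelements, had 9.07, 9.09 and 9.11 in NFAT5-deficient HSC, against 8.06, 8.07 and 8.42 in wild-type HSC, a difference of 0.91. Its NFAT5-deficient arrays lay within 0.1 of each other. Zfp846 had 6.97, 7.0 and 6.75 in NFAT5-deficient HSC, against 5.65, 5.59 and 6.68 in wild-type HSC (difference 0.93), so that the closest arrays were under 0.1 apart. Zfp976 had 8.31, 9.04 and 8.50 in NFAT5-deficient HSC, against 7.99, 7.75 and 7.37 in wild-type HSC (difference 0.92). Zfp706, which represses Klf4 in mouse embryonic stem cells, had 8.94, 8.99 and 8.62 in NFAT5-deficient HSC, against 8.14, 8.56 and 8.15 in wild-type HSC, a difference of 0.57. Zfp961, Zfp976 and Zfp706 lay above the mark on all 12 arrays.

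Zfp788 had 8.27, 9.04 and 8.21 in NFAT5-deficient HSC, against 9.52, 9.23 and 9.26 in wild-type HSC, a difference of -0.83 and the most negative of the set. The other genes that were lower without overlap were Zfp879 (-0.55), Zfp825 (-0.40) and Zfp790 (-0.39). The summed mature neutrophil marker signal was 8.73 to 8.85 (log2) on the NFAT5-deficient HSC arrays, against 11.7, 11.8 and 8.83 on wild-type HSC arrays 66, 67 and 75. It was thus higher on wild-type arrays 66 and 67, while array 75 lay within the range of the NFAT5-deficient HSC arrays. The part of this signal in the zinc finger values was not tested.

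**Figure D2:**
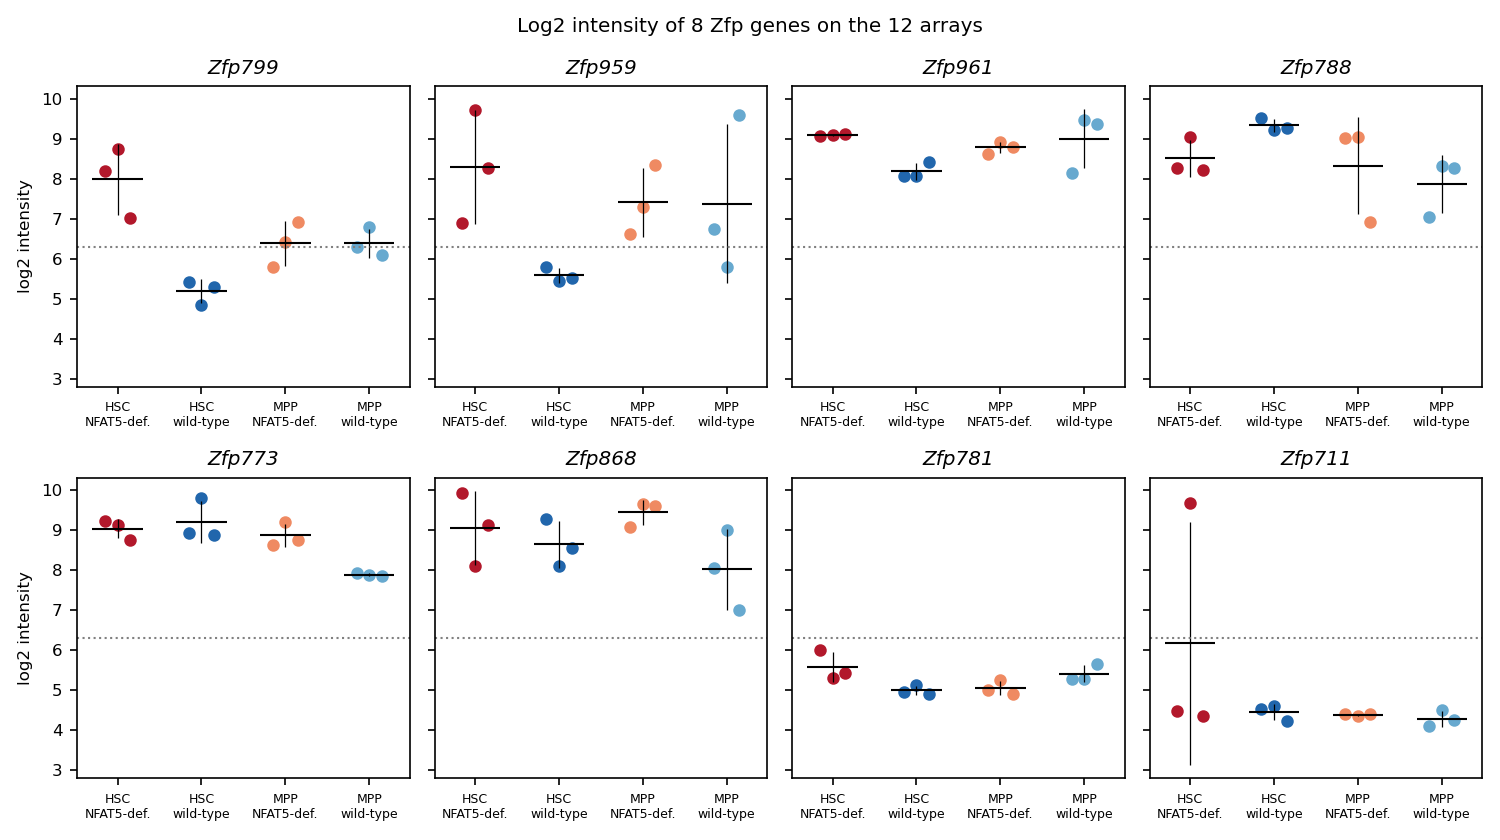
Log2 intensity (vertical axis) of 8 Zfp genes on each array, with points for arrays, horizontal bars for group means, vertical lines for 1 SD (n = 3) and a dotted line for the mark at 6.30. Zfp799 and Zfp959 separate the HSC genotypes, Zfp773 is lowest in wild-type MPP, and the mean of Zfp711 in NFAT5-deficient HSC rests on 1 array at 9.68.

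In MPP, the comparison that did not enter the choice, no member passed the test (0 of 108 at an adjusted p under 0.05 by limma, with the smallest at 0.871). Over all genes 0.00513% passed, which is 1 gene, and 6 members (5.56%, against 5.35% of all genes) had an unadjusted p under 0.05. The median half-width of the 95% intervals, which are not adjusted for the number of genes, was 0.82 for members, against 0.47 for all genes (limma). Differences larger than that could be missed too: Zfp930 differed by 1.57 with an adjusted p of 0.896 (limma). Zfp799 had 5.80, 6.42 and 6.93 in NFAT5-deficient MPP, against 6.28, 6.80 and 6.09 in wild-type MPP. The difference of -0.009 had a 95% interval from -0.94 to 0.92 (limma), and the groups overlapped. Zfp959 had 6.61, 7.29 and 8.33 in NFAT5-deficient MPP, against 6.74, 5.79 and 9.60 in wild-type MPP, with a difference of 0.04 and an interval from -2.01 to 2.09. For Zfp959 the spread between arrays of a group was as wide as the difference seen in HSC. The difference between the HSC and MPP effects was not tested, since it contains the contrast that chose the set.

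The MPP groups did not overlap in 8 members that were higher in NFAT5-deficient cells (7.41%, against 3.80% of all genes) and in 6 that were lower (5.56%, against 8.84% of all genes). The largest of the higher ones was Zfp868, with 9.09, 9.66 and 9.60 in NFAT5-deficient MPP, against 8.05, 9.02 and 7.0 in wild-type MPP (difference 1.43, SE 0.57, adjusted p = 0.896 by limma). Zfp869 had 8.53, 8.78 and 8.30 in NFAT5-deficient MPP, against 7.91, 7.83 and 6.72 in wild-type MPP (difference 1.05, adjusted p = 0.896). Wild-type array 75 was the lowest for both genes, and without it the differences were 0.92 for Zfp868 and 0.66 for Zfp869. They are neighbours on chromosome 8, and with Zfp930 and Zfp964 they form a neighbourhood whose 4 differences in MPP were all positive, from 0.85 to 1.57 with a median of 1.24. In HSC the same 4 genes had differences of -0.31 to 0.41. The Zfp964 value in MPP came from NFAT5-deficient array 64 (7.50, against 4.59 to 5.14 on the other MPP arrays).

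Zfp773 had 8.64, 9.21 and 8.76 in NFAT5-deficient MPP, against 7.93, 7.89 and 7.85 in wild-type MPP (difference 0.98, SE 0.29, adjusted p = 0.871 by limma). The 3 wild-type arrays lay within 0.1 of each other and below every other array of the series for this gene. Zfp809, which silences murine leukaemia virus in embryonic stem cells by binding its primer binding site, had 9.12, 8.27 and 8.68 in NFAT5-deficient MPP, against 8.24, 7.58 and 7.88 in wild-type MPP (difference 0.79, adjusted p = 0.899). In HSC, Zfp809 had 8.21, 9.71 and 8.41 in NFAT5-deficient cells, against 9.23, 7.65 and 7.39 in wild-type cells, which overlapped. Zfp867 was also higher without overlap in MPP, by 0.82.

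Among the lower ones, Zfp746 (PARIS), which represses the gene of the coactivator PGC-1alpha, had 7.94, 8.14 and 8.27 in NFAT5-deficient MPP, against 9.04, 8.30 and 8.44 in wild-type MPP (difference -0.48, adjusted p = 0.899), and without wild-type array 66 the difference was -0.25. Zfp992 differed by -0.44, Zfp777 by -0.41, Zfp781 by -0.37, Zfp811 by -0.26 and Zfp768 by -0.23. Zfp781 and Zfp811 lay below the mark in every group, where a log2 difference says little about transcripts. Of the 6 brightest members, Zfp992 was the only one without overlap in MPP.

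**Figure D3:**
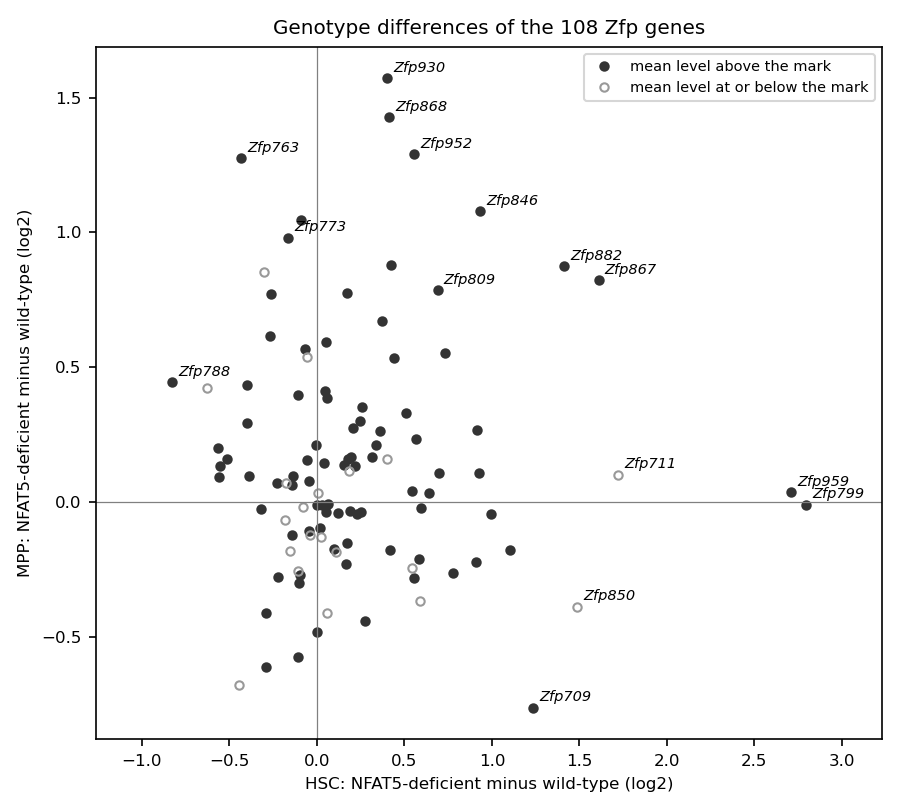
Difference between NFAT5-deficient and wild-type cells (log2) of each of the 108 Zfp genes in HSC (horizontal axis) and in MPP (vertical axis), with filled points for genes whose mean exceeds the mark of 6.30. Zfp799 and Zfp959 lie at 2.79 and 2.71 in HSC and near 0 in MPP, and most other genes lie within 1 log2 unit of 0 on both axes.

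Across the set, the median difference between genotypes was 0.10 in HSC and 0.09 in MPP, against -0.05 and -0.07 over all genes and -0.00056 and -0.05 over the Zfp genes numbered below 700. Restricted to genes above the mark, the members' medians were 0.17 in HSC and 0.12 in MPP, against -0.01 and -0.03 for all such genes. Values were higher in NFAT5-deficient cells for 67 of 108 members in HSC (62.0%, against 41.6% of all genes) and for 63 in MPP (58.3%, against 38.9%). They were higher in both populations for 38 members and lower in both for 16 (3709 and 7503 of all genes), and opposite for 54 (8282 of all genes). No member was without overlap in the same direction in both, and 1 member, Zfp781, was without overlap in opposite directions, against 44 genes higher in both, 112 lower in both and 81 opposite of all 19494.

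Neighbourhoods did not move as blocks around Zfp799. In HSC its neighbours differed by 0.92 (Zfp871), -0.11 (Zfp811), 0.12 (Zfp870), 0.56 (Zfp952) and -0.43 (Zfp763). Only Zfp799 was without overlap there, and Zfp871 had 9.12, 9.46 and 10.1 in NFAT5-deficient HSC, against 7.85, 9.30 and 8.74 in wild-type HSC. On chromosome 8, the neighbours Zfp709, Zfp882 and Zfp961 had the highest median difference in HSC of the 11 neighbourhoods, 1.24, with values of 1.24, 1.41 and 0.91. The arrays within it were uneven: Zfp709 had 5.02, 8.61 and 5.43 in NFAT5-deficient HSC, against 5.12, 4.91 and 5.32 in wild-type HSC, and Zfp882 had 8.50, 8.06 and 5.26, against 5.66, 5.95 and 5.98. In MPP the same 3 genes differed by -0.76, 0.88 and -0.22.

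**Figure D4:**
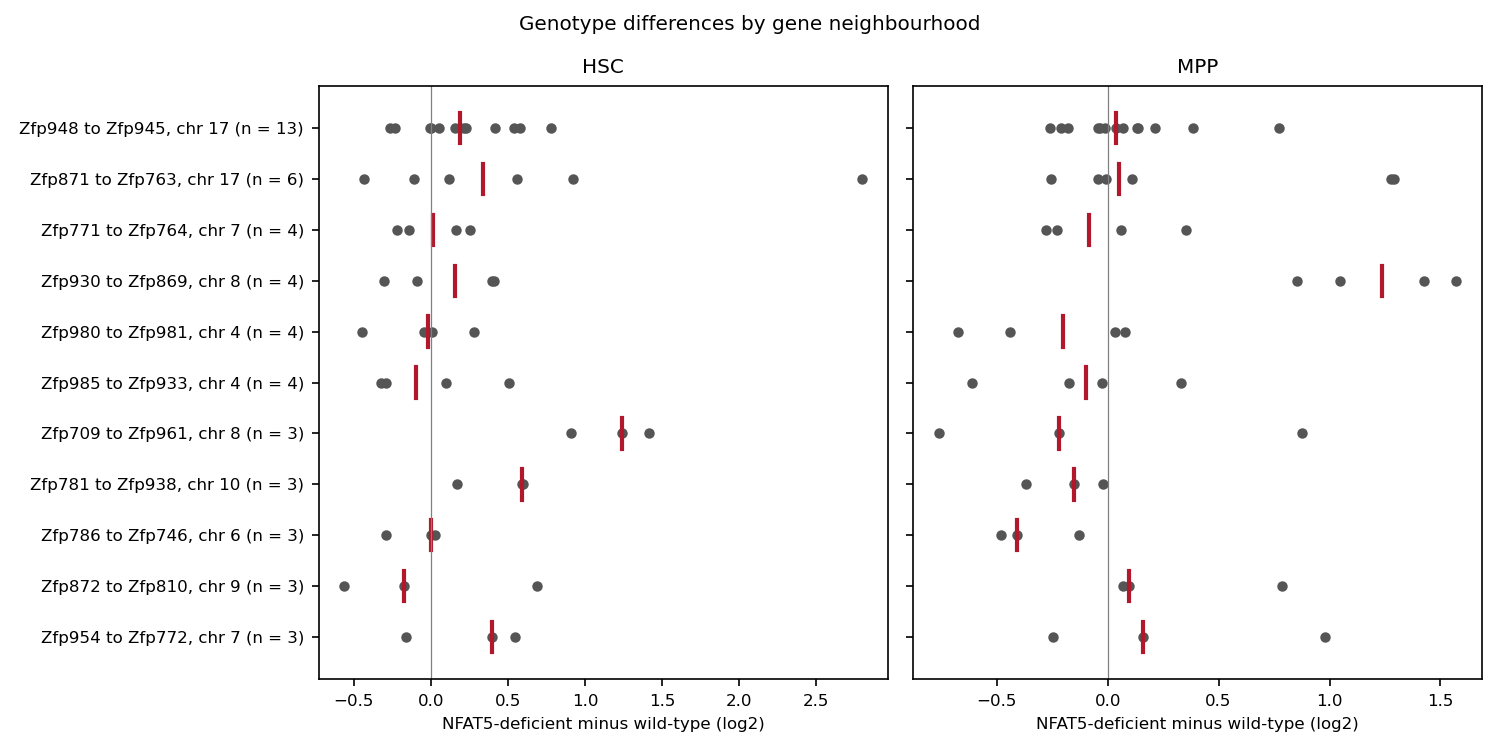
Difference between NFAT5-deficient and wild-type cells (log2, horizontal axes) for the members of the 11 gene neighbourhoods (rows) in HSC and MPP, with a point for each gene and a red bar for the median. Zfp709 to Zfp961 has the highest median in HSC and Zfp930 to Zfp869 the highest in MPP, both 1.24.

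In wild-type cells, the comparison of HSC with MPP gave no call among the 107 members tested, which leave out Zfp799 (0 of 107, smallest adjusted p 0.169 by limma), against 0.164% of all genes, which is 32 genes. Of the 107, 9 (8.41%, against 8.90% of all genes) had an unadjusted p under 0.05. The groups did not overlap in 7 members higher in HSC (6.48%, against 7.54% of all genes) and in 6 lower in HSC (5.56%, against 4.74%), shares near those of the whole array. Zfp773 had the smallest adjusted p, with 8.94, 9.81 and 8.87 in wild-type HSC, against 7.93, 7.89 and 7.85 in wild-type MPP (difference 1.32, SE 0.29, adjusted p = 0.169). Zfp949 had 8.76, 9.08 and 8.22 in wild-type HSC, against 7.36, 7.72 and 6.81 in wild-type MPP (difference 1.39, adjusted p = 0.240). Zfp788 had 9.52, 9.23 and 9.26 in wild-type HSC, against 7.05, 8.33 and 8.26 in wild-type MPP (difference 1.46, adjusted p = 0.485). All 3 genes lay above the mark on every wild-type array, with the lowest value at 6.81 (Zfp949 in wild-type MPP).

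Zfp790 (0.77) and Zfp879 (0.58) were also higher in wild-type HSC than in wild-type MPP without overlap. On the other side, Zfp709 had 5.12, 4.91 and 5.32 in wild-type HSC, against 6.56, 6.60 and 8.95 in wild-type MPP (difference -2.25, adjusted p = 0.555). Its HSC values lay below the mark and its MPP values above it, and without array 75 of MPP the difference was -1.46. Zfp799 itself had a difference of -1.20, given without a test, and Zfp934 (-0.86), Zfp992 (-0.58) and Zfp748 (-0.56) were lower in HSC without overlap. Zfp961 differed by -0.82 (adjusted p = 0.496), with overlapping arrays.

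In NFAT5-deficient cells, too, the comparison of HSC with MPP gave no call among the same 107 members (0 of 107, smallest adjusted p 0.447 by limma), against 0.210% of all genes, which is 41 genes, and 5 of the 107 (4.67%, against 7.90% of all genes) had an unadjusted p under 0.05. The groups did not overlap in 10 members higher in HSC (9.26%, against 11.5% of all genes) and in 3 lower in HSC (2.78%, against 5.39%). The summed mature neutrophil signal also separated these groups, at 8.73 to 8.85 (log2) on the HSC arrays, against 9.92 to 10.65 on the MPP arrays, and its part in these counts was not tested. Zfp799 had 8.21, 8.73 and 7.01 in NFAT5-deficient HSC, against 5.80, 6.42 and 6.93 in NFAT5-deficient MPP, a difference of 1.60 given without a test. The nearest arrays of the groups were under 0.1 apart. Zfp867 had 10.3, 7.65 and 7.35 in NFAT5-deficient HSC, against 6.54, 6.81 and 6.94 in NFAT5-deficient MPP (difference 1.65, adjusted p = 0.579), and without array 64 of HSC the difference was 0.74. Zfp954, with the smallest adjusted p, had 6.18, 6.56 and 6.37 in NFAT5-deficient HSC, against 5.53, 5.88 and 5.84 in NFAT5-deficient MPP (difference 0.62), values around the mark.

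Zfp933 (0.96) and Zfp994 (0.59) were also higher in NFAT5-deficient HSC than in NFAT5-deficient MPP without overlap. Zfp827, whose human counterpart recruits the NuRD complex to telomeres, was higher by 0.50, with HSC values of 6.13 to 6.21, below the mark. Lower in HSC without overlap were Zfp760 (-0.71), Zfp983 (-0.70) and Zfp775 (-0.29). Over all members the median difference between HSC and MPP was 0.08 in NFAT5-deficient cells and 0.02 in wild-type cells, against 0.07 and 0.05 over all genes.

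**Figure D5:**
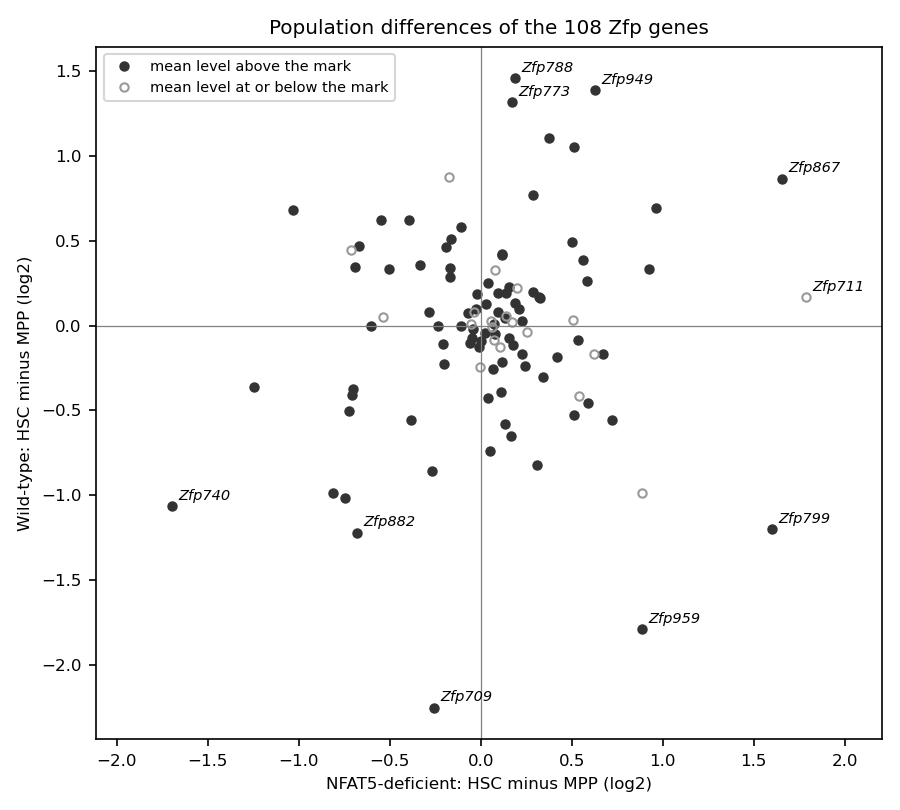
Difference between HSC and MPP (log2) of each of the 108 Zfp genes in NFAT5-deficient (horizontal axis) and wild-type cells (vertical axis), with filled points for genes whose mean exceeds the mark of 6.30. Zfp799 is higher in HSC in NFAT5-deficient cells (1.60) and lower in HSC in wild-type cells (-1.20), while Zfp773 and Zfp788 lie at 1.32 and 1.46 on the wild-type axis.

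Of 14 genes with a role known from earlier work, 13 were analysed (all except Zfp708) and 9 exceeded the mark. Zfp830 (Omcg1), a splicing-related gene that mouse blood stem cells need, had 9.42, 8.19 and 8.69 in NFAT5-deficient HSC, against 8.75, 8.90 and 8.80 in wild-type HSC, and differed by 0.16 between genotypes in MPP. Zfp932 differed by 0.25 in HSC and -0.04 in MPP. Its second probe set, which averaged 5.19 and so lay below the mark, differed by -0.39 in HSC and -0.06 in MPP. Zfp819, a gene of testis and pluripotent cells tied to retroelement silencing, lay near the mark, at 6.15, 6.03 and 6.33 in NFAT5-deficient HSC, against 6.36, 6.20 and 6.41 in wild-type HSC. Zfp703, whose human counterpart is amplified in breast cancer, and Zfp750, a regulator of epidermal differentiation, also lay near it. Zfp750 had 6.60, 6.77 and 6.50 in NFAT5-deficient MPP, against 6.09, 6.39 and 6.20 in wild-type MPP, a difference of 0.40. Zfp800 differed little between genotypes (0.04 in HSC and 0.14 in MPP). Zfp768 differed by 0.17 in HSC with overlap. In MPP it differed by -0.23 without overlap, though the closest arrays of the groups both rounded to 7.51.

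The partners of KRAB zinc finger proteins were set against the mark by their mean over 12 arrays. Of 15 listed cofactors 14 were analysed (all except Chd4), all 14 exceeded the mark, and 0 of 14 passed in the MPP genotype comparison or either population comparison (limma, with 0, 3 and 3 at an unadjusted p under 0.05 in MPP, wild-type and NFAT5-deficient cells). Trim28, the corepressor itself, had 6.44, 6.85 and 5.82 in NFAT5-deficient HSC, against 5.31, 8.0 and 11.1 in wild-type HSC, and the wide spread in wild-type HSC covered the other group. Its values of 5.82 and 5.31 lay below the mark. Setdb1, the H3K9 methyltransferase, had higher values in NFAT5-deficient than in wild-type MPP without overlap (difference 0.68). Uhrf1, which guides DNA methylation at replication, had lower values in HSC than in MPP without overlap in both genotypes, with differences of -0.86 in NFAT5-deficient and -0.57 in wild-type cells. Of the 14 cofactors, 5 (35.7%, against 5.39% of all genes) were lower and 1 (7.14%, against 11.5%) was higher in HSC than in MPP without overlap in NFAT5-deficient cells. In wild-type cells 2 (14.3%, against 4.74%) were lower in HSC. Between genotypes, 2 (14.3%, against 3.80%) were higher in NFAT5-deficient MPP, and 1, Morc3 with a difference of 0.51, was higher in NFAT5-deficient HSC (7.14%, against 3.55%). Among all genes above the mark, 7.58% were lower and 9.95% higher in HSC than in MPP in NFAT5-deficient cells. In wild-type cells 6.55% of these genes were lower in HSC. Between genotypes, 5.27% of them were higher in NFAT5-deficient MPP and 4.70% in NFAT5-deficient HSC.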

How the data were processed

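The authors deposited 1 table of log2 intensities for 12 arrays, and RMA and limma are listed in the submitters' processing notes with neither version nor role. Scanner files, detection calls, probe sequences and the files' genome build were not used here. Of 22142 probe sets, 19527 had 1 gene symbol and 2615 had none. For 33 genes with several probe sets the brightest stood for the gene, which left 19494 genes. Zfp781 and Zfp932 had 2 probe sets each. Groups were taken from the sample labels.

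Tests used limma (version 3.58.1, under R 4.3.3) with 1 mean per group, all 12 arrays in 1 fit and a variance prior that follows intensity. Benjamini-Hochberg adjustment ran over all genes, with calls at an adjusted p under 0.05. Precision is limited by the number of arrays. The test was checked on simulated data with large shifts in genes of higher intensity, which does not cover small differences or dim genes. A comparison without overlap is one in which every array of one group exceeds every array of the other. All 108 symbols matched RefSeq by Entrez identifier, and drawings used matplotlib 3.10.9. A protein table was not used here, so members were not sorted by KRAB domain.

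The members, gene lists and settings were chosen with earlier results of these data known. The genes named were Zfp799, up to 5 per direction and comparison with the largest difference without overlap, the 6 brightest, those with a known role, the neighbours of Zfp799, the 3 on either side of the rule's lower edge, and Nfat5. Zfp712, Zfp735, Zfp850, Zfp882, Zfp930, Zfp940 and Zfp964, and the cofactors and cell type markers named, were picked out after their values were seen.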

Additional observations from a re-analysis of the deposited data

Results flagged for a closer look

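For Zfp799, the difference between HSC and MPP went opposite ways in the genotypes, positive in NFAT5-deficient cells (1.60) and negative in wild-type cells (-1.20), without overlap in either. These differences are 2.80 log2 units apart, and their difference was not tested, since Zfp799 was chosen on these HSC arrays.

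For Zfp781, the groups did not overlap in opposite directions on both axes of the design. NFAT5-deficient minus wild-type was 0.59 in HSC and -0.37 in MPP, and HSC minus MPP was 0.54 in NFAT5-deficient and -0.41 in wild-type cells. Both pairs differ by 0.95, which is 1 quantity seen from either side, and the difference was not tested. Zfp781 had 6.02, 5.30 and 5.44 in NFAT5-deficient HSC, against 4.95, 5.13 and 4.91 in wild-type HSC, and 5.0, 5.24 and 4.90 in NFAT5-deficient MPP, against 5.29, 5.29 and 5.67 in wild-type MPP. All 12 values lay below the mark for dim genes, and the second probe set of the gene gave differences of 0.22 in HSC and -0.24 in MPP.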

How the results depend on the processing

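No member was called in MPP or in either population comparison under any of the 21 or 22 settings tried at an adjusted p of 0.05, nor at 0.1 in the fit as reported. The smallest adjusted p among members ran from 0.366 to 0.999 in MPP, from 0.0984 (without the intensity trend) to 0.458 between wild-type HSC and MPP, and from 0.238 to 0.783 between NFAT5-deficient HSC and MPP, while calls over all genes ran from 0 to 6 (1 as reported), 5 to 40 (32) and 3 to 59 (41). With the array number as a replicate block, 0 members passed in both population comparisons, and 5 and 3 genes passed in all in wild-type and NFAT5-deficient cells. Each number labels 1 HSC and 1 MPP array, and whether these share a source is not settled here. Deviations of same-numbered arrays from their group means correlated at 0.016, -0.003 and -0.014 in NFAT5-deficient and at 0.062, 0.064 and 0.007 in wild-type cells. Not every array correlated best with its own number. The summed mature neutrophil signal (log2) of wild-type arrays 66, 67 and 75 was 11.7, 11.8 and 8.83 in HSC and 11.5, 11.5 and 9.65 in MPP. In NFAT5-deficient cells the order of the arrays differed between HSC and MPP. The fit as reported left a possible pairing out. Leaving out 1 array moved the counts of members without overlap, which 2 arrays against 3 reach more easily by construction: in HSC genotypes to 16 to 21 higher and 8 to 11 lower (13 and 4 as reported), in MPP genotypes to 11 to 20 and 7 to 13 (8 and 6), in wild-type populations to 11 to 19 and 9 to 16 (7 and 6), and in NFAT5-deficient populations to 12 to 21 and 4 to 10 (10 and 3). Without NFAT5-deficient array 70 and wild-type array 66 of HSC together, the counts were 22 higher and 15 lower in HSC genotypes, 13 and 12 in wild-type populations, and 5 lower in NFAT5-deficient populations. Leaving out arrays can only raise such counts, over all genes as well, so nothing about the members is read from these changes. With only genes above the mark, 6 members in place of 10 were higher in NFAT5-deficient HSC than MPP (6.82%, against 9.95% of all genes above the mark). Of 404 recomputed differences of named members, 0 reversed and 1 moved beyond the spread within groups (Zfp825 in HSC, -0.16 without those 2 arrays, against -0.40). These counts say little, since members named for groups without overlap cannot reverse when arrays are left out. Leaving out 1 array also cannot move a difference beyond that spread. The spread was used only for the HSC genotype comparison and Zfp799, and elsewhere only the sign and the call were compared. The Zfp799 difference in HSC ran from 2.42 to 3.28 when 1 array was left out. The median difference over members, added after seeing the data, ran from 0.03 to 0.16 in HSC and from 0.02 to 0.17 in MPP. Intensities below the mark set the limit for 20 of the 108 genes.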
